A study of Mus musculus with 8 samples.

Results

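Peaks of the transcription factor KLF13 were examined at genes for carriers of sugars, amino acids, monocarboxylates and neurotransmitters. The members are the rows of the deposited peak list whose gene symbol belongs to the solute carrier families Slc1, Slc2, Slc3, Slc5, Slc6, Slc7, Slc16, Slc17, Slc18, Slc36, Slc38 or Slc43. They numbered 46 of the 9506 peaks and were assigned to 41 genes on 17 chromosomes. The data come from HT22, an immortalised line derived from mouse hippocampal neurons, in which BirA, a bacterial biotin ligase, was stably expressed (HT22-BirA). All groups were transfected with pTO-Klf13Bio, a plasmid for a KLF13 that BirA biotinylates, and chromatin was collected 24 h later. The 4 ChSP libraries (chromatin streptavidin precipitation) hold DNA recovered with tagged KLF13 on streptavidin, and the 4 input libraries hold chromatin with no precipitation. No precipitation from cells without tagged KLF13 was analysed here, so streptavidin background and KLF13 binding cannot be told apart at any peak. KLF13 came from a transfected plasmid in 1 cell line, and the labels do not say whether the libraries came from separate cultures.

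The list gives each peak 1 fold of ChSP over input and 1 p-value over all 8 libraries, both of them the authors' values. It holds no value per library, so neither read depth nor the spread between replicates is known, and the folds are given without an error. A fold is a linear ratio, and a promoter peak is one that the authors' annotation puts 1 kb or less from a transcription start site (TSS). Coordinates are on GRCm38.

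Solute carriers are membrane proteins that move small molecules across the plasma membrane or into vesicles. In the hippocampus, carriers of the Slc1 and Slc6 families clear glutamate, GABA, glycine and amines from the synapse, while Slc17 and Slc18 carriers load transmitters into synaptic vesicles. Slc2 and Slc16 carriers bring in glucose and lactate, and Slc7 and Slc38 carriers supply leucine, arginine and glutamine. KLF13 is a zinc finger factor of the KLF and Sp family, whose members bind GC-rich DNA such as GC boxes and CACCC boxes.

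High folds among the carriers were found at the promoters of the vesicular glutamate transporter Slc17a7 (44.8), the leucine transporter Slc7a5 (34.7) and the glucose transporter Slc2a1 (33.7). Promoter peaks were found at 37 of 114 genes of the 12 families, or 32.5% (exact 95% binomial interval 24.0 to 41.9), against 30.9% of all 21900 protein-coding genes. The share of the families as a whole therefore lay near the background. The exact 95% binomial interval of each single family also held 30.9%, and the shares by family were not tested. Peaks of any position were assigned to 41 of the 114 genes (36%), against 33.6% of all protein-coding genes. Of the 46 peaks, 39 (84.8%, exact 95% binomial interval 71.1 to 93.7) were promoter peaks, against 79.9% of all peaks. With only the 50% of peaks of smallest p the order turned, with 87.5% of the members and 90.8% of all peaks. The median fold of the 39 was 20.8 (quartiles 17.9 and 26.8), and over all 7599 promoter peaks it was 22.2 (16.5 and 30.3). No test was made of these differences, because the list has no values by library.

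The sequences before the start sites of 4 carrier genes with high folds show the kind of DNA that lay under these peaks. Each run below is the 250 bases before the RefSeq start site on GRCm38.p6, read 5′ to 3′. Capitals mark matches on either strand to 4 motifs. The GC box was searched as the letters GGGCGG. A KLF type site was searched as CACGCCC and the CACCC box by its own letters. An amino acid response type element was searched as TGATGCAA.

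Slc17a7, chr7:45163671-45163920, plus strand: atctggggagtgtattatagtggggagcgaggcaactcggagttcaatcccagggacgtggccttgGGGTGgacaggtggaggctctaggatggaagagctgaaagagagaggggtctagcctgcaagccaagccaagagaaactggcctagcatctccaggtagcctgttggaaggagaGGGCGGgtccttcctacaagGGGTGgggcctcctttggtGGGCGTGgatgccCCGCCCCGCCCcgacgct
Slc38a2, chr15:96699729-96699978, minus strand: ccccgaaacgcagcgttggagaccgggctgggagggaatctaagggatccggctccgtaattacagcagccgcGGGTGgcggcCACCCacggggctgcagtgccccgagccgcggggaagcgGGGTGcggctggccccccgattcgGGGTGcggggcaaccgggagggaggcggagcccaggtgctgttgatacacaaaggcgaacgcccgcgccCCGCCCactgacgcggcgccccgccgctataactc
Slc1a6, chr10:78780246-78780495, plus strand: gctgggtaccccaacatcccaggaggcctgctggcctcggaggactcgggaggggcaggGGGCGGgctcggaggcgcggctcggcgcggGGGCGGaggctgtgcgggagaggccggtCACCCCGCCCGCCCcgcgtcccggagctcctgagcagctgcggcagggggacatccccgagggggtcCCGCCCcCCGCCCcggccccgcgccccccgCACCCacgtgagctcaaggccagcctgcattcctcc
Slc16a1, chr3:104638414-104638663, plus strand: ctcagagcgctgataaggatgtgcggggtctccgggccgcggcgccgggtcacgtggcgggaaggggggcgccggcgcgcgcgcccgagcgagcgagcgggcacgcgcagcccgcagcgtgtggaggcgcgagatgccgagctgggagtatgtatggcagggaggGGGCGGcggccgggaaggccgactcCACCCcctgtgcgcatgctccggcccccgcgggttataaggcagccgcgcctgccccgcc

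The run of Slc17a7 held 3 GC boxes, 1 KLF type site and 2 CACCC boxes, most of them toward its 3′ end. Slc1a6 held 6 GC boxes, the most among the carrier windows under a peak. Slc38a2 held 1 GC box and 4 CACCC boxes, and Slc16a1 held 1 of each. The next run is that of Slc5a3, which had no peak assigned to it but lies under a peak assigned to Mrps6. It is followed by Slc17a6, the close relative of Slc17a7, and by Slc7a11, neither of which had an assigned peak.

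Slc5a3, chr16:92058072-92058321, plus strand: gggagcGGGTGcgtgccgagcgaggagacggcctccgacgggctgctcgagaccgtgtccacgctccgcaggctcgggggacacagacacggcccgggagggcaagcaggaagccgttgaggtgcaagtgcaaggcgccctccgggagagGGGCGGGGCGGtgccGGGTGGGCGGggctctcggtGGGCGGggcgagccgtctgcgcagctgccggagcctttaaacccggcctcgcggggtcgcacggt
Slc17a6, chr7:51621580-51621829, plus strand: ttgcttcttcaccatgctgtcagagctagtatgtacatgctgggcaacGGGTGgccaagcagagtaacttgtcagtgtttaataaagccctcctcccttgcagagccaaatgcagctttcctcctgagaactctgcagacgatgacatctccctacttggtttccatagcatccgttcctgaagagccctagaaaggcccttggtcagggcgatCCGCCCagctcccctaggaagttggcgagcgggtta
Slc7a11, chr3:50443614-50443863, minus strand: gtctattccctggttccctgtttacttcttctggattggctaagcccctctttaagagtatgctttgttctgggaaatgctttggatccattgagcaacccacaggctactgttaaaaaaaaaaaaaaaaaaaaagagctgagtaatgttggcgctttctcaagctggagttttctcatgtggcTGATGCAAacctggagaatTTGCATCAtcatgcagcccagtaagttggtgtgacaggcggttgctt

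Slc5a3 held 4 GC boxes and 2 CACCC boxes and Slc17a6 held 1 of each. Slc7a11, the cystine and glutamate exchanger, held none of the 3 KLF-like letters and 2 amino acid response type elements. Slc17a6 and Slc7a11 were chosen for display after their values were seen.

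The carriers of glutamate spanned the range of folds. Slc17a7 encodes VGLUT1, which fills synaptic vesicles with glutamate at most hippocampal excitatory synapses. Its peak lay over the TSS at chr7:45163701-45164300, was 600 bp wide and had a fold of 44.8 (the authors' p = 3.98e-11). Among the 9506 peaks it ranked 457 by fold but 5323 by p. Slc17a7 was the only member of the Slc17 family with a peak: the other 8 genes had none, among them Slc17a6 and Slc17a8, which encode VGLUT2 and VGLUT3. A peak with a fold of 14.1 beyond the 3′ end of Slc17a7 was assigned to the neighbouring gene Gfy.

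In the Slc1 family, which removes glutamate from the synaptic cleft, 3 of 7 genes had a promoter peak. Slc1a6, the carrier EAAT4 best known from cerebellar Purkinje cells, had a fold of 29.98 over its TSS at chr10:78780101-78780700 (the authors' p = 4.17e-12). Slc1a1, the neuronal carrier EAAC1, had a fold of 21.4 at chr19:28834801-28835700, a peak 900 bp wide (the authors' p = 7.23e-13). Slc1a2, the glial carrier GLT-1, had a fold of 17.6 over its TSS, the lowest of the 3. Slc1a3, the glial carrier GLAST, had no promoter peak. A single intergenic peak assigned to it lay beyond the end of the gene, at 81.8 kb from the annotated TSS (chr15:8569201-8569700), with a fold of 15.1 (the authors' p = 1.55e-09). Slc1a4 and Slc1a5, which carry neutral amino acids, and the retinal glutamate carrier Slc1a7 had no peak.

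**Figure D1:**
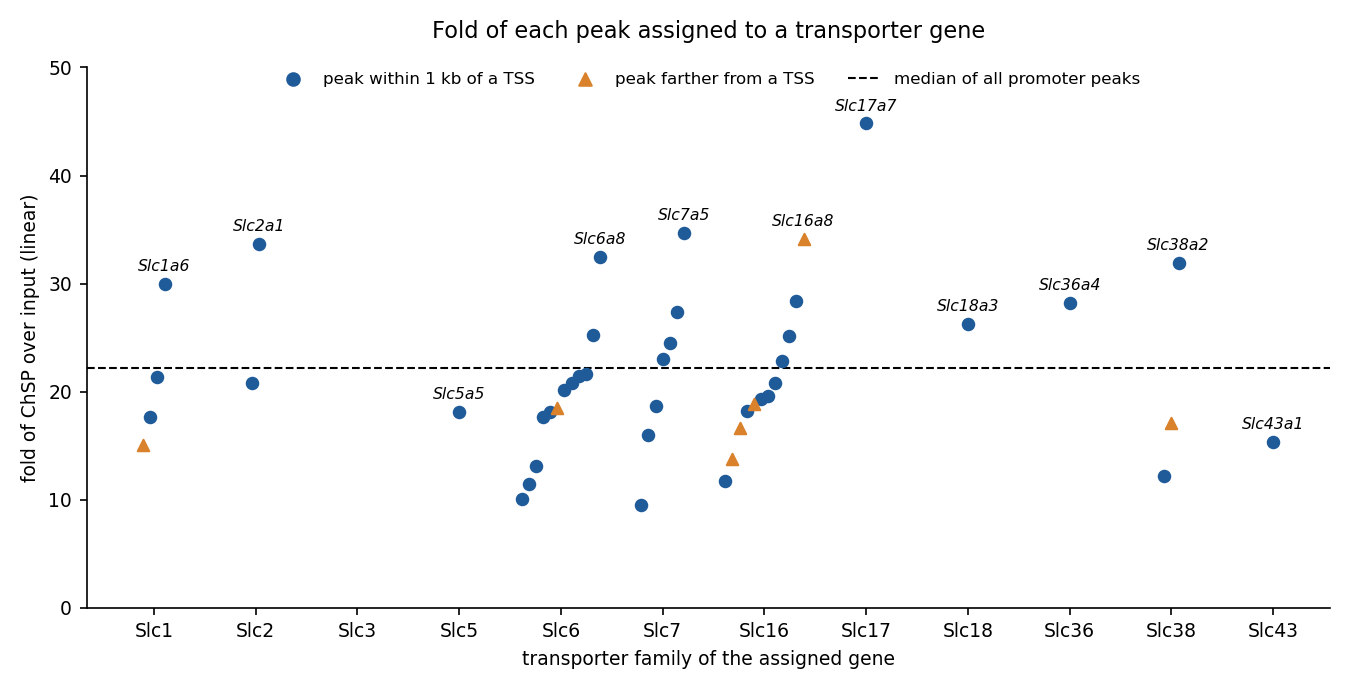
The fold of ChSP over input (linear axis) is plotted for 45 of the 46 peaks by the family of its assigned gene, with the gene of highest plotted fold named. Circles are promoter peaks, triangles are peaks farther from a TSS, and the dashed line is the median of all promoter peaks (22.2). Slc17a7 stands above 40, and most members lie between 10 and 35.

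The Slc6 family, the sodium- and chloride-dependent carriers of transmitters and amino acids, held the largest number of genes with promoter peaks, 11 of 21 (52.4%, exact 95% binomial interval 29.8 to 74.3). The interval reached just below the background of 30.9%, and the share was not tested. Slc6a11, the GABA carrier GAT3, had a pair of small promoter peaks separated by 100 bp, with folds of 17.7 (300 bp wide) and 20.8 (200 bp wide). The GABA carriers Slc6a12 and Slc6a13 had no peak.

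Slc6a8, the creatine carrier, had a fold of 32.4 at chrX:73673101-73674000 over its TSS (the authors' p = 8.55e-14). The carriers of amines had lower folds than Slc6a8. Slc6a2, the noradrenaline carrier, had a fold of 25.2 in a peak that lay at -147 bp from the annotated TSS. The RefSeq gene of Slc6a2 starts at 92960470, inside that peak (chr8:92960401-92960900). Slc6a3, the dopamine carrier, had a fold of 10.1 in a peak of 200 bp over its TSS, near the authors' limit with p = 7.72e-06. Slc6a4, the serotonin carrier, had no peak.

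The glycine carriers differed in where their peaks lay from the TSS of the authors' annotation. Slc6a9, the carrier GlyT1, had a peak 1100 bp wide that began 343 bp after the TSS, with a fold of 20.2 and a small p (the authors' p = 9.26e-20). Slc6a5, the carrier GlyT2 of inhibitory neurons, had a fold of 13.1 at -999 bp, just inside the promoter limit of 1 kb. The RefSeq gene of Slc6a5 starts earlier, at 49906984, so the peak at chr7:49909001-49909300 lies inside that gene. The taurine carrier Slc6a6 had a fold of 21.4, the proline carrier Slc6a7 21.7 and the vesicular amino acid carrier Slc6a17 18.1, each over its TSS. Slc6a20a, a carrier of proline-like amino acids, had a fold of 11.4 in a peak that began 32 bp after its TSS. The folds of Slc6a8 and Slc6a2 lay above the median of all promoter peaks, and those of the other Slc6 genes named here lay below it.

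Among the vesicular amine carriers of the Slc18 family, 1 of 3 genes had a peak. Slc18a3 encodes the vesicular acetylcholine transporter and lies inside the bounds of Chat, the gene for the enzyme that makes acetylcholine. Its peak at chr14:32464501-32465200 over the Slc18a3 TSS reached 26.2-fold (the authors' p = 2.08e-09). The same DNA lies within 1 kb of the outer end of Chat, so the assignment to one of these cholinergic genes rests on the annotation. The monoamine carriers Slc18a1 and Slc18a2 had no assigned peak. A peak assigned to Atp6v1b2 (fold 16.9), however, lay inside the RefSeq bounds of Slc18a1, within 1 kb of an end.

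The amino acid carriers of the Slc7 family had promoter peaks at 6 of 15 genes. Slc7a5 encodes LAT1, the leucine and tryptophan exchanger that also carries thyroid hormone. Its fold was 34.7 over the TSS at chr8:121907201-121908000 (the authors' p = 8.54e-27), and by p it ranked 347 among the 9506 peaks. The arginine and lysine carriers Slc7a2 (CAT2) and Slc7a1 (CAT1) had folds of 27.4 and 18.7, and the exchanger Slc7a6 (y+LAT2) had 24.5 in a peak 1000 bp wide. Slc7a10, the carrier Asc-1 of D-serine and small neutral amino acids, had a peak of fold 23.0 over its TSS and another of fold 15.9 at -685 bp, separated by 400 bp. Slc7a14 had the lowest fold of all members, 9.53, in a peak of 300 bp that began 219 bp after its TSS.

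Slc7a3, Slc7a4, Slc7a7 and Slc7a8 had no peak. Neither gene of the Slc3 family had one. Slc3a2 encodes 4F2hc, the heavy chain that brings Slc7a5 and Slc7a6 to the membrane. Peaks were listed at these light chains and not at Slc3a2, but not every light chain had a peak. Slc7a11, another light chain of Slc3a2, had none.

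Slc38 carriers move glutamine into neurons, where it is a precursor of glutamate and GABA. Promoter peaks were found at 2 of 11 genes, which are neighbours on chromosome 15 with a gap of 55.5 kb between the peaks. Slc38a2 (SNAT2), which amino acid starvation induces, had the widest peak of all members, 1500 bp over its TSS at chr15:96698601-96700100, with a fold of 31.9 (the authors' p = 8.51e-20). A second peak at -9.70 kb, in intergenic DNA at chr15:96709401-96710200, had a fold of 17.1 (the authors' p = 4.73e-13). Slc38a1 (SNAT1) had a fold of 12.2 over its TSS at chr15:96642501-96643100, higher than only 9.24% of all promoter peaks. Slc38a3, Slc38a4, Slc38a5 and Slc38a6 had no peak, nor had the lysosomal arginine sensor Slc38a9.

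Smaller families had 1 promoter peak each. Slc36a4, an amino acid carrier (PAT4), had a fold of 28.2 over its TSS at chr9:15709401-15710200 (the authors' p = 1.99e-18), while Slc36a1, Slc36a2 and Slc36a3 had none. Slc43a1, the carrier LAT3 of branched-chain amino acids, had a fold of 15.3 at chr2:84840001-84840500 (the authors' p = 8.15e-09), and Slc43a2 and Slc43a3 had none.

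Of 12 Slc2 genes, which let sugars through the membrane down their gradient, 2 had a promoter peak (16.7%, exact 95% binomial interval 2.09 to 48.4). The 30.9% of all protein-coding genes lies inside this interval, and the share was not tested. Slc2a1 encodes GLUT1, the glucose carrier of the blood-brain barrier and of most cultured cells. Its fold was 33.7 in a peak that began 56 bp after the TSS at chr4:119108801-119109500 (the authors' p = 9.22e-21). Slc2a13, a proton-linked carrier of myo-inositol, had a fold of 20.8 over its TSS at chr15:91572301-91573400, in a peak 1100 bp wide. The liver carrier Slc2a2, the fructose carrier Slc2a5 and the insulin-responsive carrier Slc2a4 had no peak. Slc2a3, the neuronal glucose carrier GLUT3, had no assigned peak. A peak assigned to Foxj2 with a fold of 22.1, however, lay inside the RefSeq bounds of Slc2a3, within 1 kb of an end.

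The sodium-coupled Slc5 family had an assigned promoter peak at 1 of 13 genes. Slc5a5, the iodide carrier of the thyroid, had a fold of 18.1 over its TSS at chr8:70892201-70893000 (the authors' p = 2.50e-11). The intestinal and renal glucose carriers Slc5a1 and Slc5a2 had none. Slc5a3, the sodium-coupled carrier of myo-inositol, starts in RefSeq at the base that the authors' annotation gives as the start of Mrps6, a mitochondrial ribosomal protein gene. The peak there, at chr16:92057801-92059000, had a fold of 46.7 (the authors' p = 6.03e-23) and was assigned to Mrps6. This fold is above that of every member, and the start of Slc5a3 lies inside the peak, yet the rule by symbol leaves it out. Slc5a3 was singled out after its values were seen.

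**Figure D2:**
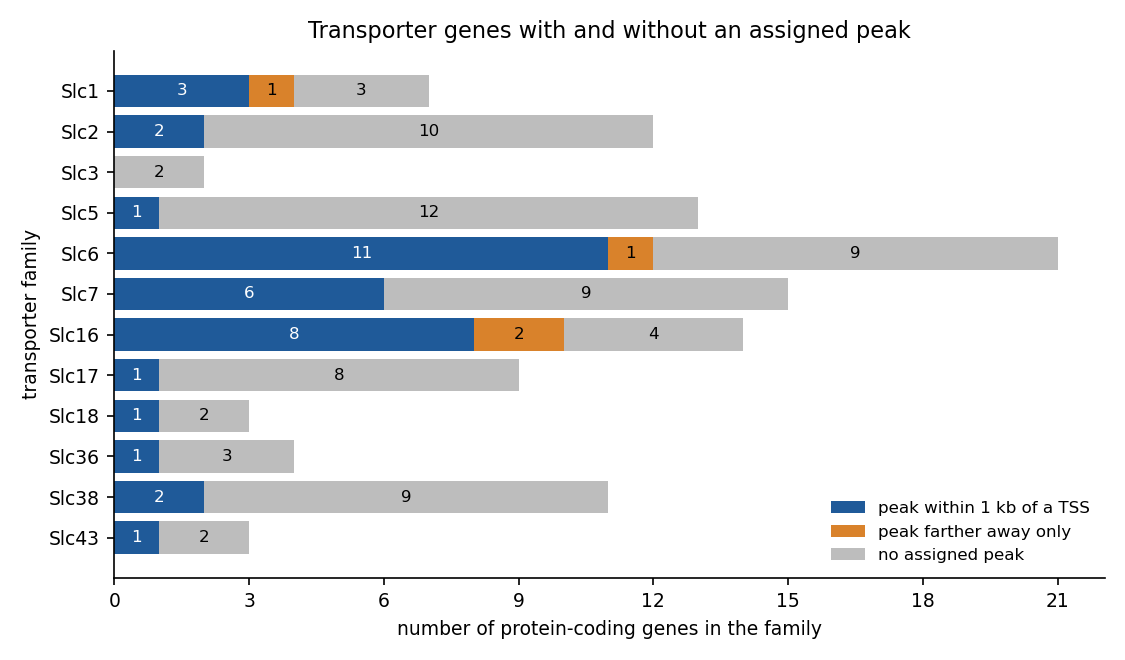
Bars give the number of protein-coding genes in each family, split into those with a promoter peak, those with a peak farther away only, and those with no assigned peak. Slc6 (11 of 21) and Slc16 (8 of 14) held the most genes with promoter peaks, while Slc3 had 0 of 2 and Slc5 had 1 of 13.

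Carriers of lactate and other monocarboxylates, the Slc16 family, had promoter peaks at 8 of 14 genes (57.1%, exact 95% binomial interval 28.9 to 82.3). The interval holds the 30.9% of all protein-coding genes, and this share was not tested either. Slc16a1 encodes MCT1, the lactate carrier found in most cells. Its peak over the TSS at chr3:104638201-104639300 was 1100 bp wide with a fold of 28.4, and its p was the smallest of all members (the authors' p = 2.84e-28). Slc16a3 (MCT4), the lactate exporter of glycolytic cells, had a fold of 25.1 at chr11:120948701-120949300. A second peak, of fold 16.7, lay at 9.93 kb from that TSS just past the end of the gene and inside the bounds of Csnk1d, a clock kinase gene. The aromatic amino acid carrier Slc16a10 had a fold of 22.8 and the creatine carrier Slc16a12 had 20.8. Slc16a14, Slc16a6, Slc16a9 and Slc16a11 had folds of 19.6, 19.3, 18.2 and 11.7. Slc16a4, Slc16a5 and Slc16a13 had no peak.

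The peaks of Slc16a7 and Slc16a8 lay outside the annotated promoters. Slc16a7 encodes MCT2, the neuronal lactate carrier, and its peak at chr10:125389101-125389700 was annotated as intergenic at -60.6 kb, with a fold of 13.7 (the authors' p = 3.74e-10). The RefSeq gene is longer than the transcript used for that distance and ends at 125389586, inside the peak. The gene is on the minus strand, so this is its upstream end. Slc6a21 showed the same: its peak at chr7:45277201-45277700 was annotated at -5.03 kb (fold 18.5), but the RefSeq gene starts at 45277331, inside the peak. Slc16a8 (MCT3, the carrier of the retinal pigment epithelium) had 2 peaks. The stronger, at chr15:79261201-79262100 with a fold of 34.1 (the authors' p = 3.18e-17), was the highest of the 7 members outside promoters and lay at -6.45 kb in an exon of the neighbouring gene Baiap2l2. The other, with a fold of 18.9, began 2048 bp after the Slc16a8 TSS.

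The position of the promoter peaks was then compared among the members. Of the 39 promoter peaks, 29 overlapped the TSS of the authors' annotation, 7 began after it and 3 ended before it. Those 3 include the peaks of Slc6a2 and Slc6a5, which RefSeq places over the gene start and inside the gene, respectively. Another RefSeq gene lay within 1 kb of 12 of the 39, among them the peaks of Slc7a5, Slc2a1, Slc6a8, Slc1a6 and Slc18a3. The assignment of these 12 to the carrier rests on the annotation, and the same count was not made for all promoter peaks. The centre lay downstream of the TSS in 28 of the 39 (71.8%) and in 73.9% of all promoter peaks, with medians of 84.5 bp and 117.5 bp downstream. Widths of all 46 peaks ran from 200 to 1500 bp with a median of 600 bp, which is also the median of the whole list. Fold and width rose together across the 46 peaks (Spearman rho 0.52, and 0.67 over all peaks). Fold and the negative log10 of p also rose together across the 46 (rho 0.61). All points share the same libraries, so fold, width and p are not separate measures of strength. The highest decile by fold (950 of all 9506 peaks) held 2 of the 46 members (4.35%), of which Slc17a7 was one. That is a lower share than the decile holds of the whole list, and the difference was not tested. In the 50% of peaks with the smallest p there were 24 members (52.2%).

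**Figure D3:**
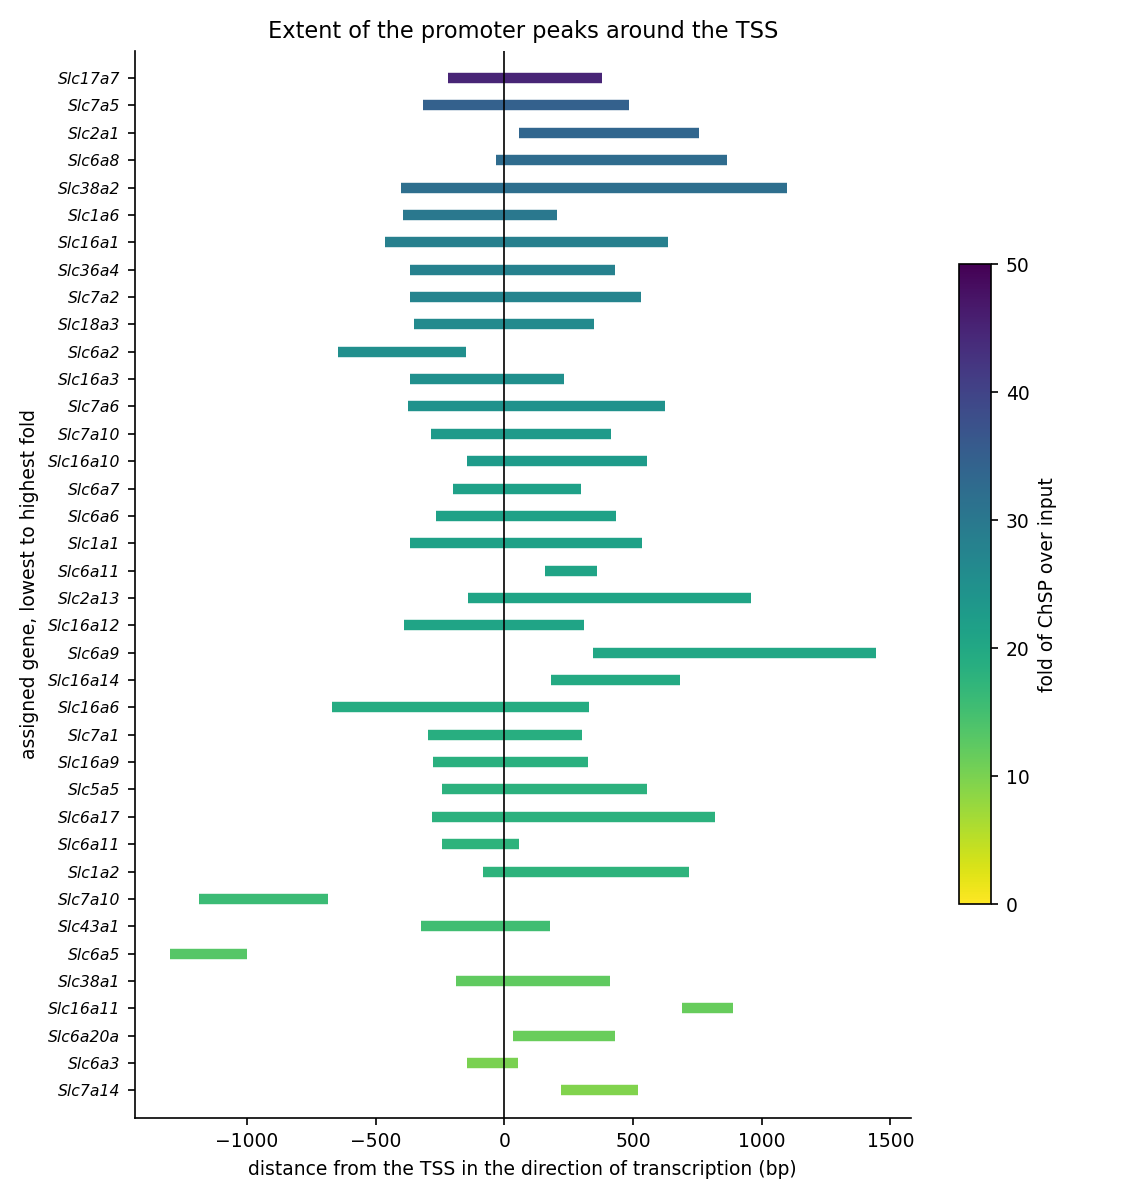
Each line is 1 promoter peak, shown for 38 of the 39 and drawn from its start to its end in bp from the TSS of the assigned gene (negative is upstream), ordered and coloured by fold. Most lines cross 0, which is the TSS of the authors' annotation. Those of Slc6a5 and Slc6a2 and the weaker peak of Slc7a10 end before it, and that of Slc6a9 begins 343 bp after it. In RefSeq the peak of Slc6a2 overlaps the gene start and that of Slc6a5 lies inside the gene.

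Base composition and motifs were read in the RefSeq table of 300 base windows, from 250 before to 50 after a start site. Of the 37 genes with a promoter peak, 28 had a window in the table and 21 had one that overlapped the peak. The 21 windows had a median GC content of 67.7% (range 60 to 75.7) and a median ratio of observed to expected CpG of 0.829. The 4701 windows under promoter peaks of all other genes had 68.7% and 0.857, and all 32851 windows had 52.7% and 0.384. Among the families' genes without a promoter peak, 75 windows of 55 genes had medians of 55.0% and 0.364, and 20 of these windows had a GC content at or above the lowest value of the 21. They include Slc5a3.

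GGGCGG, on either strand, was found in 20 of the 21 windows (95.2%, exact 95% binomial interval 76.2 to 99.9). It was found in 35.7% of all windows, in 83.8% of those under other promoter peaks and in 38.7% of the carrier windows without a promoter peak. By gene, 24 of the 55 carrier genes behind those last windows had it in at least 1 window. The window without it was that of Slc16a12. CACCC was found in 19 of 21 windows (90.5%), against 57.5% of all windows and 67.6% of those under other promoter peaks. The longer GGGGCGGGG, which contains GGGCGG, was in 6 of 21 (28.6%), against 11.4% of all windows and 35.3% under other peaks. CACGCCC was in 3 of 21 (14.3%), against 8.44% and 19.9%, at Slc17a7, Slc16a10 and Slc16a9. Matches of different motifs may overlap, and GC content moves with these shares, whose part in them was not tested.

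The remaining motifs are bound by other factors. The E-box CACGTG was in 5 of 21 windows (23.8%, exact 95% binomial interval 8.22 to 47.2), against 7.15% of all windows and 10.5% under other peaks, at Slc1a6, Slc16a1, Slc16a12, Slc43a1 and Slc6a3. TATAAA was in 1 of 21, that of Slc43a1, against 13.6% of all windows. The CRE TGACGTCA and the element TGATGCAA were in 0 of 21, which leaves an exact 95% binomial upper limit of 16.1% for each, against 1.79% and 0.895% of all windows. TGATGCAA was in 5 of the 75 carrier windows without a promoter peak (6.67%), among them those of Slc7a11 and Slc1a4 and overlapping windows of Slc7a7. The 75 windows come from 55 genes, so they are not 1 for each gene. A match describes these letters and is not a measured binding site.

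**Figure D4:**
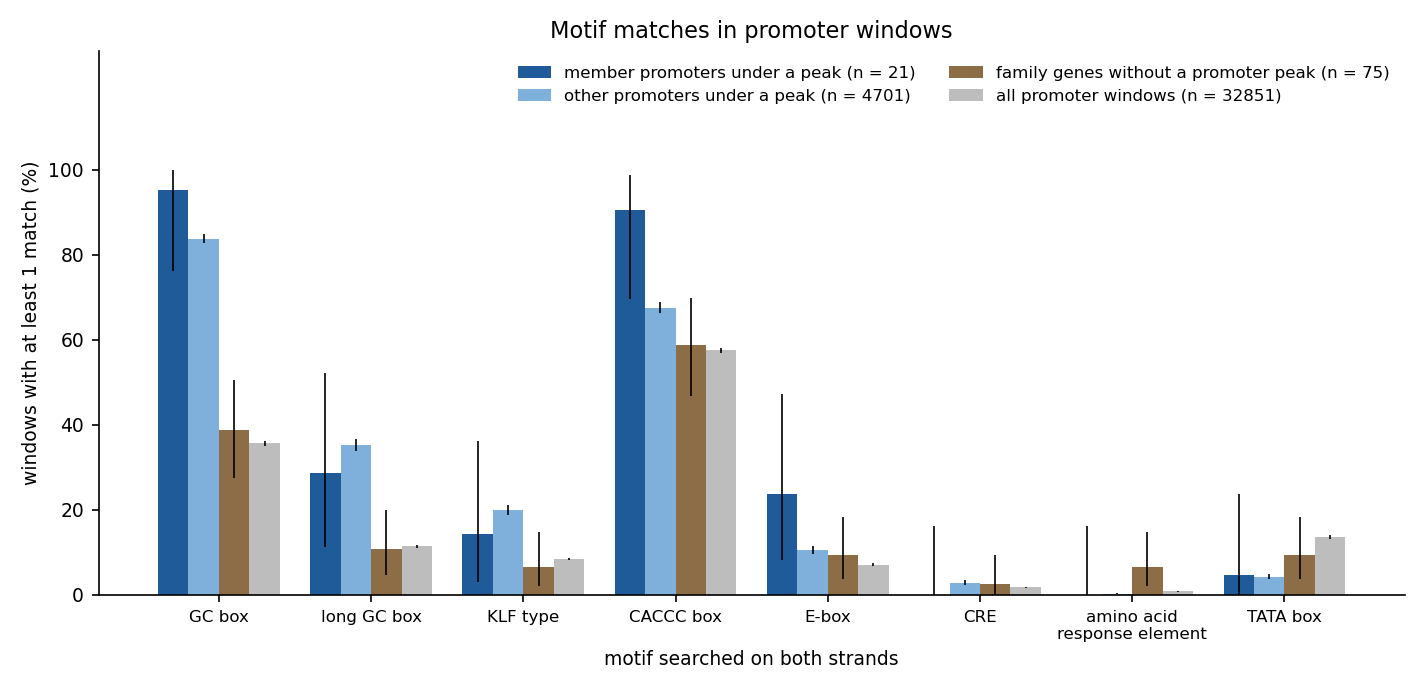
Bars show the share of windows of 300 bases with at least 1 match on either strand, for carrier promoters under a peak (21 windows), other promoters under a peak (4701), carrier genes without a promoter peak (75) and all windows (32851). Error bars are exact 95% binomial intervals, which are wide for the 21 windows. The 75 windows come from 55 genes and the 32851 from 27025, and their error bars count windows of 1 gene as separate. GC box and CACCC box shares are highest under peaks, at 95.2% and 90.5% for the carriers.

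Genes that work with these carriers were counted in the same way, beside the 30.9% of all protein-coding genes. Genes of amino acid sensing and mTORC1, counted as 1 list that includes subunits of mTORC1 itself, had promoter peaks at 13 of 28 (46.4%). Sesn3, a sestrin, had a fold of 46.6 and Seh1l, a subunit of the GATOR2 complex, 40.7, while the Rag GTPase genes Rraga and Rragb had none. The amino acid response had them at 6 of 16 genes (37.5%), with folds of 39.0 at Cebpb and 38.8 at Cebpg, which encode partners of ATF4, and no promoter peak at Eif2ak4 and Eif2s1. Sesn2 stands in both lists. Glutamate and GABA metabolism had them at 7 of 12 (58.3%). Glud1, glutamate dehydrogenase, had a fold of 34.5, while Gad2 and Abat had none.

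Partners and trafficking genes of carriers had promoter peaks at 10 of 18 (55.6%). Tbc1d1, a Rab GTPase regulator of GLUT4 traffic, had a fold of 55.0 and the ubiquitin ligase gene Nedd4l 45.5. Txnip and Arrdc4, arrestin relatives that remove glucose carriers from the membrane, had no peak. Bsg and Emb, the chaperones of monocarboxylate carriers, had low folds of 11.9 and 11.6, and were named after their values were seen. Glycolysis had promoter peaks at 4 of 26 genes (15.4%), none with a fold above 16.5. That value was at Pfkfb3, a regulator of phosphofructokinase, and the enolase gene Eno2 had 15.0, while the hexokinase genes Hk1 and Hk2 had none. Transmitter synthesis and breakdown had 1 of 12 (8.33%), at the acetylcholinesterase gene Ache with a fold of 23.2, and none at Th and Ddc. Chat is among the 12 and was counted without a peak, although the peak assigned to Slc18a3 lies within 1 kb of Chat. The lists were chosen with earlier results known and give counts beside the background, with no test. They hold only 12 to 28 genes each and no interval was computed for them, so the distance of a share from the background is uncertain.

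**Figure D5:**
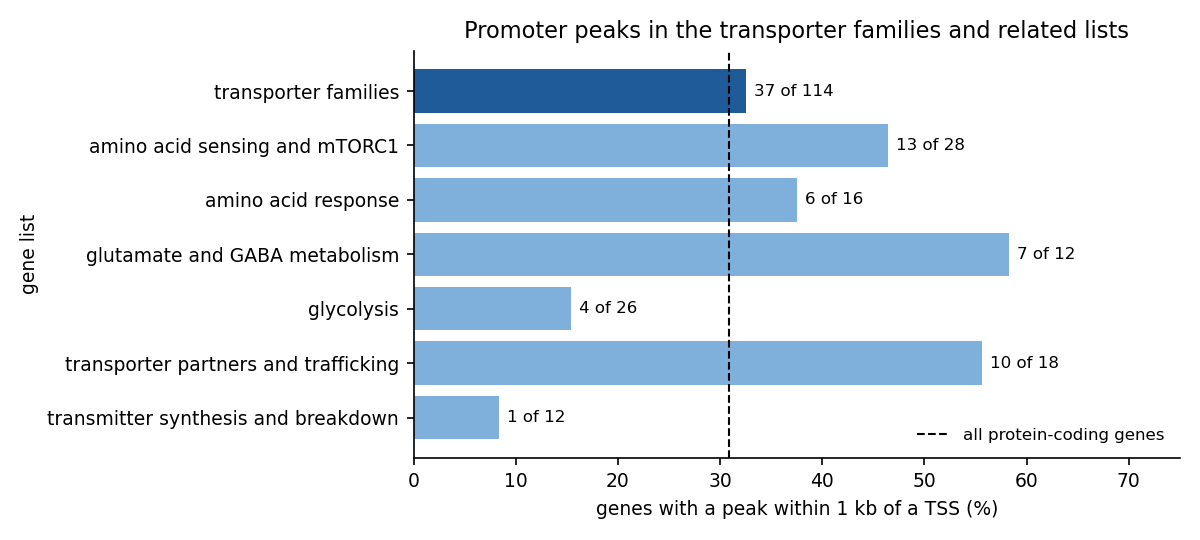
Bars show the percentage of genes with a promoter peak in the 12 carrier families and 6 related gene lists, with counts beside them, and the dashed line marks 30.9% of all protein-coding genes. The carriers (37 of 114) lie near the line, glycolysis (4 of 26) and transmitter synthesis (1 of 12) below it, and glutamate and GABA metabolism (7 of 12) above it. Each related list holds only 12 to 28 genes and has no interval here, and distances from the line were not tested.

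Other solute carriers were counted in the same way, beside the 30.9% of all protein-coding genes. The 47 mitochondrial carriers of the Slc25 family had promoter peaks at 18 genes (38.3%, exact 95% binomial interval 24.5 to 53.6) and the 211 remaining Slc genes at 85 (40.3%, 33.6 to 47.2). The interval of the Slc25 genes holds this background, and that of the remaining Slc genes lies above it. Median promoter folds of these groups were 20.5 and 20.8, and that of the 12 families was 20.8. All 18 peaks of Slc25 genes were promoter peaks, and of the 108 peaks of the remaining Slc genes 90 were (83.3%). The intervals of the gene shares of both groups overlap that of the 12 families (24.0 to 41.9), and the differences were not tested.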

How the data were processed

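DNA from 4 ChSP and 4 input libraries of HT22 cells was summarised by the authors in 1 peak list. HOMER 4.9.1, ChIPseeker 1.16.1, BWA 0.7.17-r1188 and FastQC 0.11.3 appear in the submitters' processing notes, with the build GRCm38 and no role for each. PePr is known as the peak caller from the list's name, without its settings or its scaling of libraries. The deposited fold is a linear ratio of ChSP over input per peak, computed by the authors. The deposited p-value is also the authors', and none exceeds 9.99e-06. A score that the authors also deposited was not used. Widths come in steps of 100 bp. Peak annotation, distance to the TSS and assigned gene are the authors', per the file headers.

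Members were taken by symbol. Family genes were the 114 protein-coding genes with such symbols in a RefSeq gene table of GRCm38.p6, leaving out Slc7a6os, an opposite-strand gene. The table holds the gene identifiers of 9503 peaks. Of the pathway genes, Samtor was not matched. Shares have exact (Clopper-Pearson) 95% intervals that cover counting error only. Motifs were matched exactly on both strands, with 1 window for each gene with a promoter peak, that with the most bases inside the peak. The matching and interval code was tested on simulated data. Members, lists and motifs were chosen with earlier results of these data known. Named genes were, for each family, all with a peak, in full for the 2 of highest promoter fold, those with 2 or more peaks and those beyond 10 kb, with up to 4 genes without a peak, first by number. For each pathway list they were the 2 of highest promoter fold and up to 2 without. Slc5a3 with its peak, Slc7a11, Slc17a6, Slc17a8, Slc38a9, Bsg, Emb and neighbouring genes were named outside this rule after their values were seen. Some genes that fall under the rule are not reported here, and the plots leave out 1 peak. Alternatives were the peaks with the smallest p or a fold at or above the median, no 5% widest peaks, 3 kb, merging of peaks closer than 1 kb, the geometric mean, any assigned peak, either gene end, another motif background and bases before the start site only. Software was scipy 1.17.1, numpy 2.4.6, pandas 2.3.3 and matplotlib 3.10.9 under Python 3.11.15.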

Additional observations from a re-analysis of the deposited data

How the results depend on the processing

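No paired analysis was possible because each peak has 1 value over all 8 libraries, and no library could be left out for the same reason. The count of family genes with a promoter peak, 37 of 114, came to 21 (18.4%) with only the 50% of peaks of smallest p kept, where all protein-coding genes had 18.6%, and 19 (16.7%) with a fold at or above the median of all peaks, where they had 18%. Both settings leave out peaks by construction. It was 36 to 41 without the widest peaks, within 3 kb, with any assigned peak and at either gene end. The promoter share of 84.8% was 95% (88.3% of all peaks) and the median promoter fold of 20.8 was 27.4 (29.2) with a fold at or above the median. With only the peaks of smallest p the share was 87.5%, below the 90.8% of all peaks, so the order of members and all peaks turned. In the other settings run the share was 84.1% to 87%, above that of all peaks, and in all settings but that of high folds the median fold was 20.8 to 23.0, where that of all promoter peaks was higher each time. Against promoters under other peaks in place of all windows, the excess of windows with GGGCGG fell from 59.6 to 11.4 percentage points, and that of GGGGCGGGG went from 17.1 to -6.72. CACGCCC went from 5.84 to -5.62 and TATAAA from -8.85 to 0.444 under the same background. The cause was not tested. With 21 windows, shares are precise only to the intervals given.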
